A study of Homo sapiens with 12 samples.

Results

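Small nucleolar RNAs (snoRNAs) are short RNAs that guide the chemical modification of other RNAs, and in human cells most of them are cut out of the introns of longer host genes. The genes described here are the host genes that carry no known protein product of their own. They were chosen by name: every entry named SNHG followed by a number, together with GAS5, ZFAS1, DANCR and EPB41L4A-AS1. The rule matched 26 of the 32077 genes listed, and the 23 with at least 10 counts in at least 3 of the 12 samples are reported. SNHG22, SNHG25 and SNHG28 had fewer counts and are not described further.

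RNA-seq had been carried out to ask how pentamidine, an antiparasitic diamidine that gathers in mitochondria, alters transcription in prostate cancer cells. PC3 and DU145, established cell lines that grow without androgen and carry the genotype label wild type, received 2.5 uM pentamidine or vehicle for 48 hours. Each of the 4 groups (PC3 vehicle, PC3 pentamidine, DU145 vehicle, DU145 pentamidine) held 3 samples, and nothing in the labels says that they came from separate cultures, so that p-values measure the spread between these samples, which may be technical. RNA with a poly(A) tail was sequenced, and the total count was 13514195 to 15131436 per sample.

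The labels of the lines were compared with marker genes before anything else. PC3 is known for a deletion of CTNNA1, the gene of alpha-catenin, yet the vehicle-treated libraries labelled PC3 held 6003 to 6714 counts of CTNNA1, beside 5711 to 5906 in DU145. The epithelial gene EPCAM had 0 to 2 counts in every library of both lines, and the epithelial keratin KRT8 stood at 20.2 ± 1.51 CPM (counts scaled to the size of the library; SD, n = 3) in vehicle-treated PC3 against 2707 ± 89.3 in DU145. KLK3, a product of androgen-responsive prostate cells, had 0 to 2 counts in all libraries. The libraries labelled PC3 therefore went against that label on CTNNA1, and PC3 and DU145 are used below as the names the labels give. Of the pairs of replicates, those with PC3 vehicle replicate 1 differed most (mean chi-square per gene 5.975 and 7.305, against 1.715 to 3.641 for all other pairs), and calls of the response that change without this library are named. The study's methods state that the lines were authenticated by STR profiling.

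A host gene is transcribed and spliced like an mRNA. The introns yield the snoRNAs, which join core proteins: box C/D snoRNAs guide ribose methylation and box H/ACA snoRNAs guide pseudouridylation, while small Cajal body RNAs act on the RNAs of the spliceosome. What remains is a spliced RNA with short reading frames that, for GAS5, ZFAS1 and several others, is known to be removed by nonsense-mediated decay (NMD) when ribosomes translate it. Many host genes start with a C followed by pyrimidines, the 5′ terminal oligopyrimidine (5′TOP) signature they share with ribosomal protein genes. GAS5 was first isolated as a transcript that accumulates in cells that stop growing.

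The starts of 6 host genes are shown because they give examples with and without this signature. Each is 30 bases before and 30 bases from the RefSeq start site on GRCh38.p14, on the strand of the gene, with the C and its pyrimidines in capitals. They lie at chr20:49278612-49278671 on the plus strand (ZFAS1), chr6:85678704-85678763 on the minus strand (SNHG5), chr9:136728155-136728214 on the minus strand (SNHG7), chr16:2155329-2155388 on the minus strand (SNHG19), chr1:28581844-28581903 on the minus strand (SNHG12) and chr5:112160496-112160555 on the plus strand (EPB41L4A-AS1).
ZFAS1: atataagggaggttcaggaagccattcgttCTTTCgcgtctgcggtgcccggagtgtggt
SNHG5: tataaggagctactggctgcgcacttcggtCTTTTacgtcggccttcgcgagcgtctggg
SNHG7: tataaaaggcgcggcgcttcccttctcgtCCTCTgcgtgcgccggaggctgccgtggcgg
SNHG19: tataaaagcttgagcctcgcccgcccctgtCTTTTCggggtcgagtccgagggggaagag
SNHG12: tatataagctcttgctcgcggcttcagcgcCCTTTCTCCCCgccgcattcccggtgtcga
EPB41L4A-AS1: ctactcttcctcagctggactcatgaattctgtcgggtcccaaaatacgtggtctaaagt

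In ZFAS1, SNHG5, SNHG19 and SNHG12 the capitals begin at the annotated start itself, in SNHG7 1 base before it, and EPB41L4A-AS1 has none within 10 bases. The RefSeq start lies 464 bases from the start in the deposited table for ZFAS1 and 1110 bases for SNHG12, and at most 3 bases for the other starts printed. For GAS5 the distance is 163 bases. A GENCODE release 29 transcript of GAS5 starts at position 173867989 of chromosome 1, inside the deposited gene, and its first 60 bases are shown because it is the 1 of 10 spliced GAS5 transcripts there that starts with the signature.
GAS5 transcript: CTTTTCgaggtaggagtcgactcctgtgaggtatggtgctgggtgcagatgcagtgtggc

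Of the host genes past the test after pentamidine, all were higher, in PC3 as in DU145. Without 1 library, though, some passed as lower in PC3, and SNHG12 did so in DU145. In PC3 cells, 12 of 23 host genes passed an adjusted p of 0.05 (edgeR's quasi-likelihood test, Benjamini-Hochberg adjusted over all genes tested) and all 12 were higher, beside 21.7% of the 13861 genes tested that were higher and 21.7% that were lower. In DU145 cells 8 of 23 were higher and 0 lower, beside 17.2% higher and 16.8% lower among 14313 genes. At an unadjusted p below 0.05, DANCR and SNHG26 in PC3 and SNHG12 in DU145 had negative log2 fold changes. SNHG12 passed as lower in DU145 without DU145 vehicle replicate 1 (log2 -0.18, adjusted p = 0.0473). DANCR and SNHG26 passed as lower in PC3 in a fit of all 12 samples (adjusted p = 0.0440 and 0.0409) and with limma. Without PC3 vehicle replicate 1 the calls in PC3 were 10 higher and 3 lower: SNHG5 and SNHG20 lost theirs, while DANCR (log2 -0.16, adjusted p = 0.0453), SNHG3 (-0.17, adjusted p = 0.0164) and SNHG12 (-0.20, adjusted p = 0.0235) passed as lower. The study's own threshold asks for an absolute log2 fold change above 1 as well, and 0 of 23 host genes met it in either line, beside 4.75% of all genes in PC3 and 2.03% in DU145.

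The median log2 fold change of the 23 host genes was 0.16 in PC3 and 0.05 in DU145, where the medians over all genes tested were 0.00458 and 0.00849. The DU145 median ran from 0.0263 without DU145 pentamidine replicate 1 to 0.135 without replicate 3. The 3 samples of pentamidine-treated PC3 lay wholly above the 3 vehicle samples for 12 host genes and wholly below for 4, beside 26.1% and 26.1% of all genes. In DU145 the same held for 8 and 1, beside 21.9% and 22.1%. Together the 23 host genes took 0.113% ± 0.00501 (SD, n = 3) of all counts in vehicle-treated PC3 and 0.144% ± 0.00527 after pentamidine. In DU145 the shares were 0.118% ± 0.00170 and 0.136% ± 0.00224. In bulk RNA, more RNA per cell and more cells that carry it cannot be told apart.

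**Figure D1:**
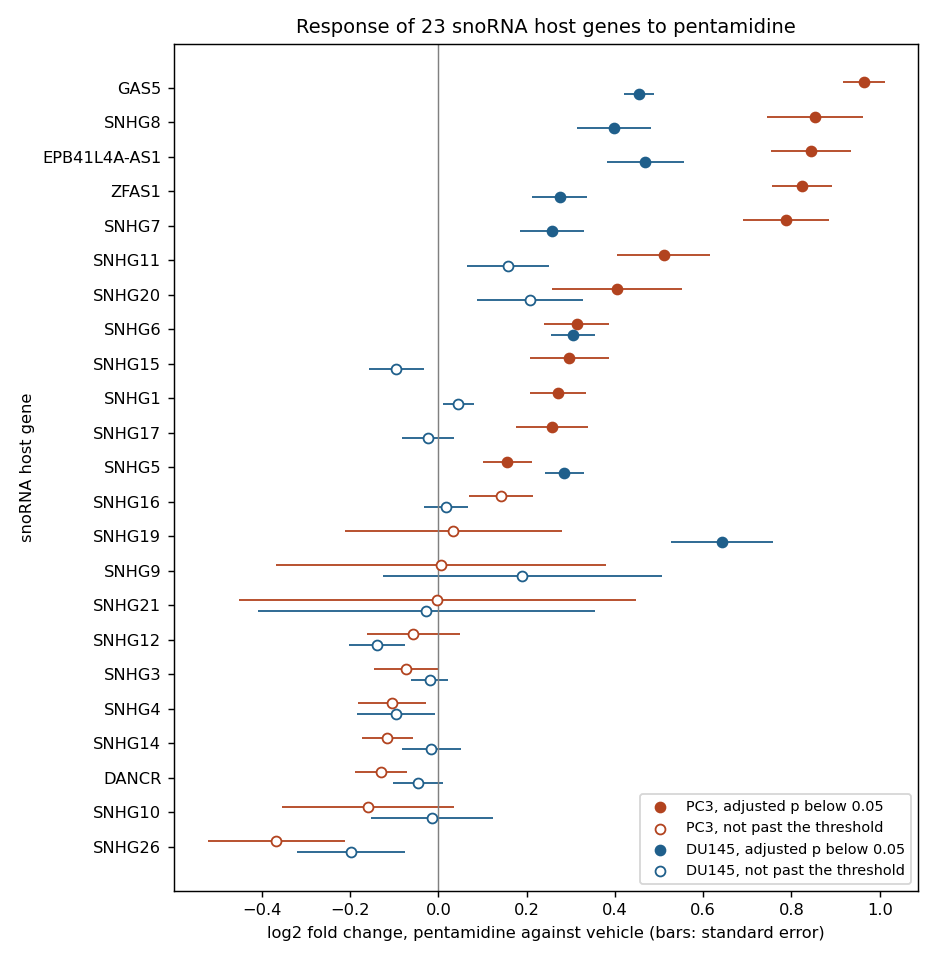
Log2 fold change of each host gene after pentamidine against vehicle in PC3 (red) and DU145 (blue), with bars for 1 standard error and filled points for an adjusted p below 0.05. GAS5 leads in PC3 at 0.96, SNHG19 leads in DU145 at 0.64, and no filled point lies below 0.

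Of the 9 hosts of box C/D snoRNAs, 5 were higher in PC3 and 5 in DU145, beside 6 and 3 of the 10 hosts of box H/ACA snoRNAs and 21.7% and 17.2% of all genes. Of the 3 hosts of small Cajal body RNAs, 1 was higher in PC3 and 0 in DU145, and SNHG12, which carries snoRNAs of both boxes, passed in neither line. No test of a difference between these classes was made. They serve here to order the genes.

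GAS5, which carries a run of box C/D snoRNAs, had the highest CPM and the largest log2 fold change of the host genes in PC3. Its level in the 3 vehicle-treated PC3 samples was 197, 199 and 199 TMM-scaled CPM and in the 3 pentamidine-treated samples 391, 391 and 372. In DU145 it was 223, 209 and 210 with vehicle and 299, 289 and 288 with pentamidine. The groups did not overlap in either line, and the treated PC3 samples also stood above the treated DU145 samples. The fold change was 1.95 in PC3 (log2 0.96, standard error 0.05, adjusted p = 4.17e-11) and 1.37 in DU145 (log2 0.45, standard error 0.03, adjusted p = 4.59e-16). GAS5 alone made up 17.2% to 18.5% of the host gene counts in vehicle-treated PC3 samples and 26.5% to 27.1% after pentamidine, and in DU145 17.2% to 18.7% and then 21.7%.

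ZFAS1, an RNA read from the opposite strand at the promoter of ZNFX1 and host of the SNORD12 snoRNAs, came next among the box C/D hosts in PC3. Its level was 32.8, 35.4 and 32.6 CPM in vehicle-treated PC3 and 57.8, 61.3 and 58.9 CPM after pentamidine. In DU145 it was 35.7, 35.2 and 38.2 CPM and then 45.0, 44.2 and 42.4 CPM. Neither pair of groups overlapped. ZFAS1 changed on the log2 scale by 0.82 in PC3 (standard error 0.07, adjusted p = 3.86e-08) and 0.27 in DU145 (standard error 0.06, adjusted p = 0.000434).

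SNHG5, host of the SNORD50 snoRNAs, is one of the 9 host genes whose log2 fold change was higher in DU145 than in PC3. It stood at 77.5, 77.1 and 78.3 CPM in vehicle-treated PC3 and at 90.2, 83.6 and 84.8 CPM after pentamidine. In DU145 it went from 96.1, 90.6 and 95.0 CPM to 120.3, 114 and 108 CPM. All treated samples lay above the vehicle samples of their line. The log2 fold change was 0.16 in PC3 (adjusted p = 0.0325) and 0.29 in DU145 (adjusted p = 6.23e-07), and the PC3 call was lost on leaving out any 1 of 5 of the 6 PC3 samples (adjusted p 0.0517 without vehicle replicate 1 and up to 0.166 without pentamidine replicate 1), as well as with DESeq2, limma, library size alone, no filter on low counts and a replicate block (adjusted p 0.0595 to 0.0874).

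SNHG6, host of SNORD87, changed by nearly the same amount in both lines. Vehicle-treated PC3 samples had 53.4, 62.5 and 60.8 CPM and treated ones 75.6, 76.0 and 67.3 CPM. The DU145 samples had 63.1, 69.2 and 61.4 CPM with vehicle and 79.7, 81.1 and 77.9 CPM with pentamidine. The groups did not overlap in either line, and the log2 fold changes were 0.31 (adjusted p = 0.00231) in PC3 and 0.31 (adjusted p = 2.36e-06) in DU145. Their difference was 0.01, with a 95% interval from -0.17 to 0.18.

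SNHG1, which carries a long series of box C/D snoRNAs, was higher in treated PC3. The vehicle samples had 121, 142 and 130 CPM and the treated ones 157, 166 and 149.6 CPM, without overlap. It rose by 0.27 on the log2 scale (standard error 0.06, adjusted p = 0.00248). In DU145, where its vehicle level was already 242 ± 5.86 CPM, the log2 fold change was 0.05 with an adjusted p of 0.323, and the groups overlapped. With library size alone it was 0.0953 and passed (adjusted p = 0.0251).

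SNHG19, a short host gene that holds SNORD60, was the only host gene called in DU145 and not in PC3. In DU145 the vehicle samples had 9.24, 9.24 and 8.66 CPM and the treated samples 15.9, 13.4 and 13.0 CPM, without overlap. Its log2 fold change, 0.64 with a standard error of 0.12, was the largest of the host genes in that line (adjusted p = 1.25e-05). In PC3 the 3 vehicle samples were spread over 4.47, 8.61 and 12.01 CPM, and the treated samples at 9.92, 8.95 and 6.61 CPM fell inside that spread. The log2 fold change there was 0.03 with a 95% interval from -0.45 to 0.51, below the estimate of 0.64 in DU145. The difference between the lines did not pass the test (log2 difference -0.61, adjusted p = 0.138), though it did with no filter on low counts (adjusted p = 0.0221) and without PC3 vehicle replicate 1 (-0.90, adjusted p = 0.000407). On leaving out 1 sample it ran from -0.90 to -0.26.

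SNHG14, SNHG16 and SNHG26 complete the box C/D hosts and were called in neither line. SNHG14 is the very long imprinted transcript that carries the SNORD115 and SNORD116 clusters, and its log2 fold change was -0.12 in PC3 and -0.02 in DU145. SNHG16, host of the SNORD1 snoRNAs, had 0.14 and 0.02, and passed as higher in PC3 without PC3 vehicle replicate 3 (0.22, adjusted p = 0.0137). SNHG26, host of SNORD93, had the lowest estimate of all in PC3: vehicle samples stood at 7.52, 7.38 and 7.88 CPM and treated samples at 4.72, 6.40 and 6.48 CPM. These groups did not overlap, yet the log2 fold change of -0.37 had an adjusted p of 0.0658.

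**Figure D2:**
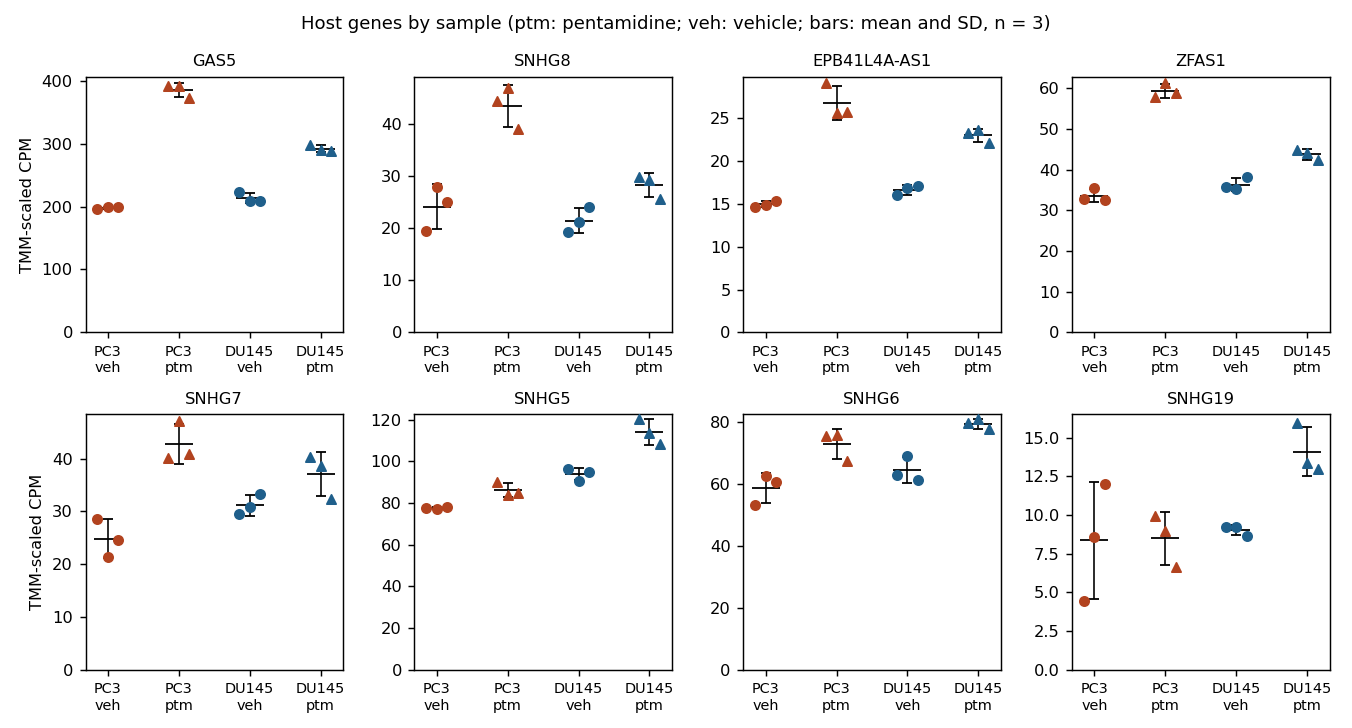
TMM-scaled CPM of 8 host genes in all 12 samples, with circles for vehicle, triangles for pentamidine and bars for the mean and SD of 3 samples. GAS5 reaches 372 to 391 CPM in treated PC3 and 288 to 299 in treated DU145, and the 3 PC3 vehicle samples of SNHG19 are spread from 4.47 to 12.01.

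Among the hosts of box H/ACA snoRNAs, EPB41L4A-AS1, which holds SNORA13, moved most in DU145 and nearly as much as SNHG8 in PC3. It had 14.6, 14.9 and 15.4 CPM in vehicle-treated PC3 and 29.1, 25.6 and 25.7 CPM after pentamidine. In DU145 it had 16.02, 16.9 and 17.1 CPM and then 23.3, 23.6 and 22.1 CPM. The groups did not overlap in either line. On the log2 scale it rose by 0.84 in PC3 (standard error 0.09, adjusted p = 9.77e-07) and 0.47 in DU145 (standard error 0.09, adjusted p = 1.98e-05).

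SNHG8, host of SNORA24, had 19.4, 27.9 and 25.0 CPM in vehicle-treated PC3 and 44.5, 47.0 and 39.0 CPM in treated PC3. Its values in DU145 were 19.3, 21.1 and 24.0 CPM with vehicle and 29.9, 29.2 and 25.6 CPM with pentamidine. Neither pair overlapped. PC3 vehicle replicate 1 was the lowest of the PC3 samples. SNHG8 rose by 0.85 on the log2 scale in PC3 (standard error 0.11, adjusted p = 7.34e-06) and 0.40 in DU145 (standard error 0.08, adjusted p = 0.000137).

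SNHG7, host of SNORA17 snoRNAs, had 28.6, 21.3 and 24.6 CPM in vehicle-treated PC3 and 40.1, 47.0 and 40.9 CPM after pentamidine, with no overlap. In DU145 the vehicle values of 29.4, 30.7 and 33.2 CPM overlapped the treated values of 40.3, 38.6 and 32.4 CPM at 1 treated sample. SNHG7 rose by 0.79 on the log2 scale in PC3 (standard error 0.10, adjusted p = 4.39e-06) and 0.26 in DU145 (standard error 0.07, adjusted p = 0.00440). The DU145 call was lost without DU145 pentamidine replicate 1 (adjusted p = 0.0563).

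SNHG11, SNHG15 and SNHG17 were called in PC3 and not in DU145. SNHG11, host of SNORA60, went from 14.1, 12.4 and 15.98 CPM to 19.7, 20.9 and 19.6 CPM in PC3 (log2 0.51, adjusted p = 0.000811), and its log2 fold change in DU145 was 0.16 (adjusted p = 0.195). SNHG15, host of SNORA9, went from 35.6, 41.2 and 42.1 CPM to 47.0, 54.8 and 43.7 CPM in PC3 (log2 0.30, adjusted p = 0.0129), while in DU145 it was -0.10 (adjusted p = 0.253). All treated PC3 samples lay above the vehicle samples for both genes.

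SNHG17, host of the SNORA71 snoRNAs, had 42.5, 37.8 and 41.8 CPM in vehicle-treated PC3 and 51.5, 51.4 and 42.6 CPM in treated PC3. The lowest treated sample lay only just above the highest vehicle sample. Its log2 fold change was 0.26 in PC3 (adjusted p = 0.0171) and -0.02 in DU145 (adjusted p = 0.798), and the PC3 call was lost on leaving out vehicle replicate 2 or pentamidine replicate 1 or 2 (adjusted p 0.0925 to 0.0964). The SNHG15 call in PC3 was lost without pentamidine replicate 2 (adjusted p = 0.108).

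DANCR, SNHG3, SNHG4 and SNHG9 were called in neither line, but DANCR and SNHG3 passed as lower in PC3 without vehicle replicate 1, as given above. DANCR, host of SNORA26 and known for holding progenitor cells undifferentiated, had 74.6, 76.6 and 79.3 CPM in vehicle-treated PC3 and 70.9, 71.7 and 67.3 CPM after pentamidine, without overlap (log2 -0.13, adjusted p = 0.0860). SNHG3, host of the SNORA73 snoRNAs, and SNHG4, host of SNORA74A, had log2 fold changes of -0.07 and -0.11 in PC3 and of -0.02 and -0.10 in DU145. SNHG9 had only 9 to 30 counts a sample, and its log2 fold change of 0.01 in PC3 had a 95% interval from -0.73 to 0.74. SNHG12 had -0.06 in PC3 and -0.14 in DU145 (adjusted p = 0.695 and 0.0870). It too passed as lower in PC3 without PC3 vehicle replicate 1, and in DU145 without DU145 vehicle replicate 1.

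Of the hosts of small Cajal body RNAs, SNHG20 was higher in PC3 only by the test, with 6.16, 7.25 and 6.26 CPM in vehicle samples and 7.62, 8.46 and 9.92 CPM in treated ones. The log2 fold change was 0.40 (standard error 0.15, adjusted p = 0.0348). In DU145 it was 0.21 (adjusted p = 0.184), and the difference between the lines was 0.19 (adjusted p = 0.529). The PC3 call was lost with DESeq2 (adjusted p = 0.0768) and on leaving out vehicle replicate 1 or 3 or pentamidine replicate 2 or 3 (adjusted p 0.0648 without vehicle replicate 1 and up to 0.169 without pentamidine replicate 3). SNHG10 and SNHG21 had log2 fold changes of -0.16 and -0.00232 in PC3, and the 7 to 20 counts of SNHG21 give no precision.

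The question whether the lines responded alike was put to the interaction of treatment and line over all 12 samples. The response was larger in PC3 for 7 of 23 host genes and smaller for 0, beside 10.2% and 10.3% of the 15226 genes tested. ZFAS1 differed by 0.55 on the log2 scale (adjusted p = 3.51e-05), SNHG7 by 0.53 (adjusted p = 0.00455) and GAS5 by 0.51 (adjusted p = 1.25e-07). The others were SNHG8 (0.46), SNHG15 (0.39), EPB41L4A-AS1 (0.38) and SNHG1 (0.23), with adjusted p from 0.0125 to 0.0285. These 4 calls were lost on leaving out single samples, that of SNHG8 in 5 fits (adjusted p 0.0557 without PC3 vehicle replicate 1 and up to 0.107), of SNHG1 in 4, of EPB41L4A-AS1 in 3 and of SNHG15 in 2. In the other direction, SNHG5 passed with library size alone (-0.20, adjusted p = 0.0493) and SNHG19 in the fits named above. SNHG17 (0.28, adjusted p = 0.0510) and SNHG11 (0.35, adjusted p = 0.0644) did not pass the threshold, and SNHG17 did under 5 other settings (adjusted p 0.0358 to 0.0492) and in 4 fits that left out a sample (adjusted p 0.00698 to 0.0444, and 0.0175 without PC3 vehicle replicate 1). SNHG11 did without PC3 vehicle replicate 3 (adjusted p = 0.0174). Without PC3 pentamidine replicate 2 4 host genes passed the threshold.

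The 7 host genes called in both lines were GAS5, ZFAS1, SNHG5, SNHG6, SNHG7, SNHG8 and EPB41L4A-AS1, and in 6 of them the estimate was larger in PC3. Across the 23 host genes the log2 fold changes in PC3 and DU145, which share no sample, had a Pearson r of 0.67 and a Spearman rho of 0.71. This is a description over genes, which are not independent replicates.

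With vehicle alone the lines already differed for 12 of 23 host genes, and for 15 without PC3 vehicle replicate 1. PC3 was higher for 3 (DANCR, SNHG4 and SNHG14) and lower for 9 (GAS5, SNHG1, SNHG5, SNHG7, SNHG10, SNHG16, SNHG17, SNHG20 and SNHG26), beside 31.5% higher and 33.8% lower of 14394 genes. An absolute log2 difference above 1 was found for 2 host genes, beside 19.2% of all genes. SNHG14 had 103, 94.3 and 94.3 CPM in PC3 and 34.6, 34.6 and 38.4 CPM in DU145 (log2 difference 1.41, adjusted p = 1.09e-11). SNHG10 had 3.45, 4.27 and 5.23 CPM in PC3 and 8.87, 9.24 and 7.43 CPM in DU145 (log2 difference -1.01, adjusted p = 7.78e-05).

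SNHG1 came next, at 131 ± 10.7 CPM in PC3 and 242 ± 5.86 CPM in DU145 (SD, n = 3; log2 difference -0.91, adjusted p = 8.30e-10). DANCR was higher in PC3 by 0.53 (adjusted p = 1.07e-06). Of the genes that responded most to pentamidine, SNHG8, ZFAS1 and EPB41L4A-AS1 did not pass the test of a vehicle difference (log2 differences 0.14, -0.14 and -0.18). SNHG7 differed by -0.35 (adjusted p = 0.00419) and GAS5 by -0.13 (adjusted p = 0.0179). This call of GAS5 was lost with library size alone (adjusted p = 0.310), with no filter on low counts (0.0702) and without DU145 vehicle replicate 1 (0.104), and that of SNHG17 in 4 settings (0.0512 to 0.124). The call of SNHG4 was lost without DU145 vehicle replicate 2 (log2 difference 0.20, adjusted p = 0.0635).

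Levels were also divided by the exon length of each gene, joined over all its annotated transcripts. For GAS5 this length was 3631 bases, while its spliced transcripts in GENCODE release 29 were 242 to 1007 bases long. The order of the genes therefore depends on the annotation and is not an order of RNA amounts. On this scale vehicle-treated DU145 had the highest value for SNHG1 (64.4 CPM per kb), followed by GAS5 (58.9) and SNHG6 (51.8). In vehicle-treated PC3 GAS5 led with 54.6, before SNHG6 with 47.2 and SNHG1 with 34.9. The samples of these 3 genes did not overlap each other in either line. DANCR at 33.6 and SNHG3 at 31.7 followed in PC3, with samples that overlapped those of SNHG1. After pentamidine GAS5 reached 106 CPM per kb in PC3 and 80.4 in DU145. At the low end, SNHG14, spread over 43324 bases of exon, had 2.25 CPM per kb in PC3 and 0.828 in DU145.

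**Figure D3:**
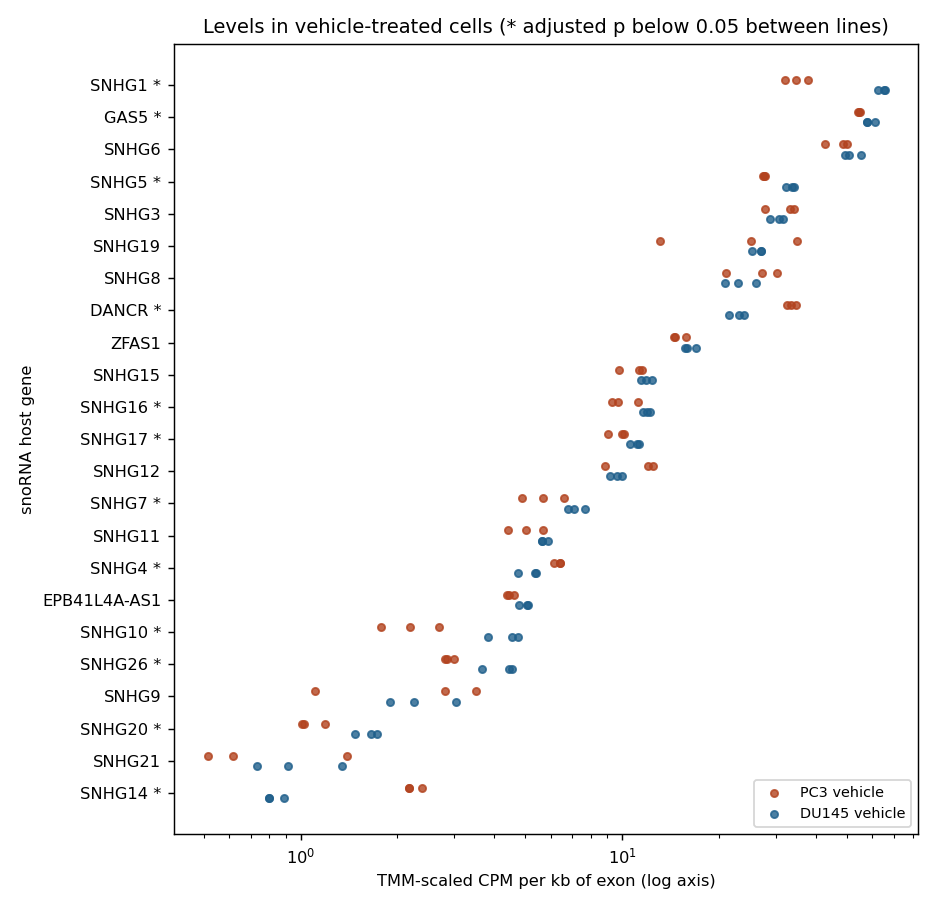
Level of each host gene in the 3 vehicle-treated samples of PC3 (red) and DU145 (blue), as TMM-scaled CPM per kb of exon on a log axis, with an asterisk where the lines differed at an adjusted p below 0.05. The samples of SNHG14, SNHG1 and DANCR separate by line, and those of ZFAS1 and SNHG8 lie close together.

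The library protocol names no strand marking, so that reads of overlapping genes cannot be told apart. Of the 23 host genes, 14 overlap another listed gene that is no small RNA and 9 do not. Of the 9 that overlap none, 6 were higher in PC3 (SNHG1, SNHG5, SNHG8, SNHG11, SNHG15 and SNHG17) and 3 in DU145 (SNHG5, SNHG8 and SNHG19), beside the background shares given above. The genes that overlap GAS5 and ZFAS1 on the other strand did not move with them. ZBTB37, across from GAS5, had log2 fold changes of -0.21 in PC3 and -0.06 in DU145 (adjusted p = 0.0586 and 0.511). ZNFX1, across from ZFAS1, had 0.10 in PC3 (adjusted p = 0.125) and fell by 0.17 in DU145 (adjusted p = 0.000255).

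SNHG3 overlaps, on the same strand and with 37 bases between the starts, RCC1, a regulator of nuclear transport, and RCC1 fell by 0.49 in PC3 and by 0.29 in DU145 (adjusted p = 5.91e-07 and 4.55e-10) while SNHG3 was not called. SNHG20 has the same deposited start as SEC14L1, which was higher in PC3 by 0.24 (adjusted p = 0.000833), the line in which SNHG20 was called. GLRX5, across from SNHG10, fell by 0.30 in PC3 (adjusted p = 0.00149), and TRNAU1AP, across from SNHG12, fell by 0.24 there (adjusted p = 0.0211). Inside SNHG14, PWAR6 fell by 0.46 in PC3 (adjusted p = 0.0136) and PWAR5 by 0.65 in DU145 (adjusted p = 0.0260). Across from SNHG14, UBE3A had -0.05 in PC3 and -0.01 in DU145, while AC124312.2 fell by 0.98 in PC3 (adjusted p = 0.0224) on 8 to 34 counts a sample. MATR3 and SIL1, which overlap SNHG4, had log2 fold changes of -0.00218 and 0.07 in PC3. MCMDC2, across from SNHG6, had 11, 10 and 17 counts in vehicle-treated and 27, 19 and 24 in treated DU145, higher by 0.85 (adjusted p = 0.0476), the line in which SNHG6 was also called. FAM69B, across from SNHG7, had 0.59 in DU145 (adjusted p = 0.0892). The share of these genes in the values of the host genes was not tested.

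Some host genes start within 1000 bases of a gene on the other strand. SNHG1 lies back to back with SLC3A2, the heavy chain of amino acid transporters at the cell surface, with 188 bases between the starts. SLC3A2 had 2877, 3248 and 3037 counts in vehicle-treated PC3 and 9611, 9340 and 9397 counts after pentamidine, a log2 fold change of 1.63 (adjusted p = 2.66e-13), while SNHG1 changed by 0.27. In DU145 SLC3A2 was higher by 0.84 (adjusted p = 1.40e-27) and SNHG1 was not called. RPS2, beside SNHG9, was higher by 0.42 in each line, and TRAF7, beside SNHG19, changed by 0.10 in DU145 (adjusted p = 0.0338), where SNHG19 changed by 0.64.

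The snoRNAs themselves had few counts in these poly(A)-selected libraries. The table lists 43 small RNAs inside the host genes (21 of them inside SNHG14), and 8 had enough counts to be tested in both lines. Of these 8, 0 passed the test in either line. SNORD12B and SNORD12C lie in introns of ZFAS1, at chr20:49280319-49280409 and chr20:49278940-49279028 of GRCh38 on the plus strand. Their GENCODE release 29 sequences are shown because ZFAS1, called in both lines, holds snoRNAs that could be tested in both, and the capitals mark box C and box D, which bind the core proteins.
SNORD12B: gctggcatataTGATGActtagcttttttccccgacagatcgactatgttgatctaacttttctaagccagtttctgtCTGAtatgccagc
SNORD12C: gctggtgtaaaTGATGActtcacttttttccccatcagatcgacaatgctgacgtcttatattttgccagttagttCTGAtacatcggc

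SNORD12B had 74, 51 and 44 counts in vehicle-treated PC3 and 47, 49 and 62 counts after pentamidine, while ZFAS1 went from 484, 547 and 443 counts to 857, 863 and 873. The snoRNA groups overlapped and those of the host did not. SNORD12B was listed at 11.5% ± 3.28 (SD, n = 3) of the ZFAS1 count in vehicle-treated PC3 and at 6.09% ± 0.883 after pentamidine. In DU145 the shares were 11.4% ± 2.00 and 7.93% ± 1.38. Its own log2 fold change was -0.09 in PC3 and -0.26 in DU145 (adjusted p = 0.767 and 0.356). SNORD12C had -0.46 and -0.66 (adjusted p = 0.338 and 0.109), on 7 to 28 counts a sample.

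SNHG17, called in PC3, holds 3 tested snoRNAs of the SNORA71 family, whose log2 fold changes in PC3 were -0.26 (SNORA71A), -0.14 (SNORA71B) and 0.01 (SNORA71C), with standard errors of 0.30 to 0.37. At such errors a change the size of the host's could not be seen. The remaining ones were SNORD99 inside SNHG12, SNORA73B inside SNHG3 and SNORD104 inside SNHG25. No small RNA is listed inside GAS5.

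**Figure D4:**
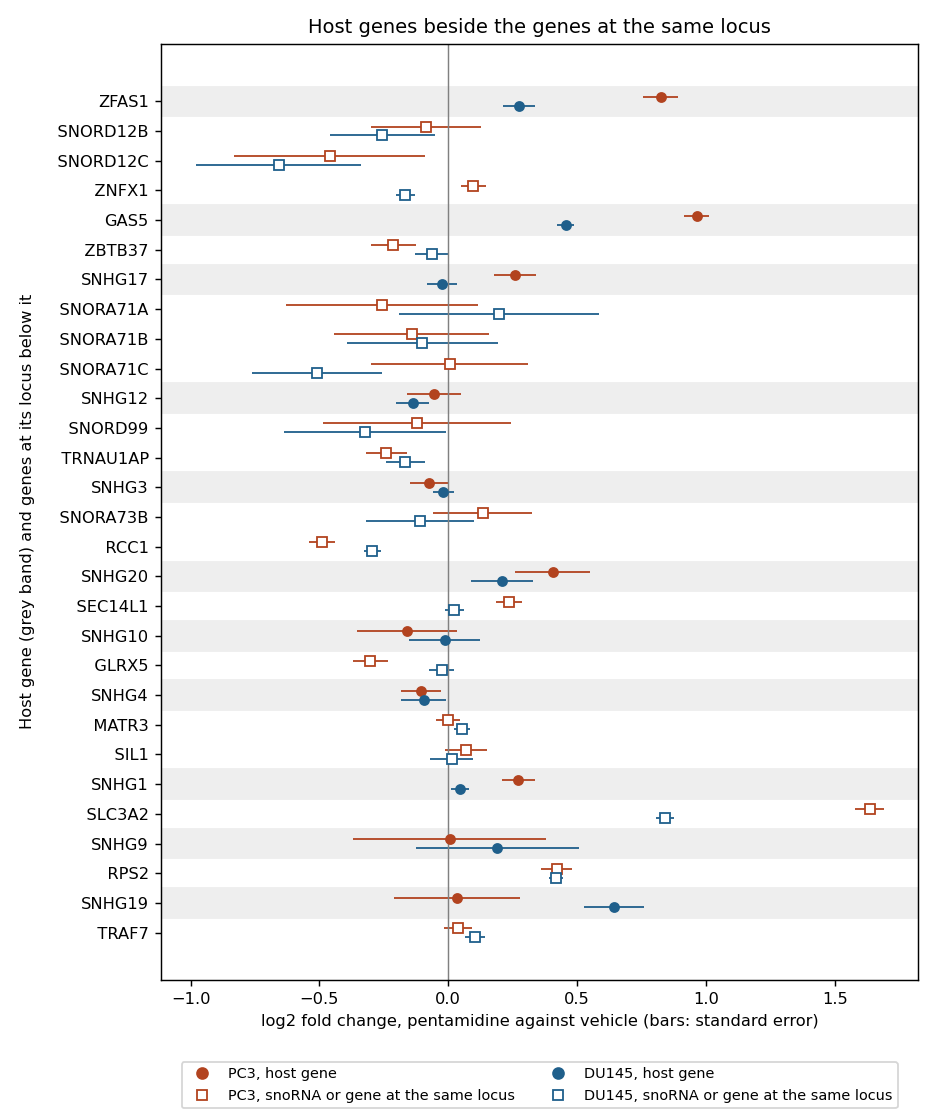
Log2 fold change, with bars for 1 standard error, of host genes (circles, grey bands) and of the snoRNAs and genes at the same locus (open squares below each host gene) in PC3 (red) and DU145 (blue). ZFAS1 lies at 0.82 in PC3 above its snoRNAs and ZNFX1, and SLC3A2 lies at 1.63 beside SNHG1 at 0.27.

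RefSeq held a promoter sequence for 20 of the 23 host genes. A C followed by at least 4 pyrimidines began within 1 base of the annotated start in 7 of 20 (35%), beside 8.17% of 27305 promoters of the same length. These were SNHG12, DANCR, SNHG4, SNHG5, SNHG7, SNHG19 and ZFAS1. Of these 7, 3 were higher in PC3, beside 10 of the 20 with a sequence. ZFAS1, SNHG5, SNHG7 and SNHG19 were higher in at least 1 line, while SNHG12, DANCR and SNHG4 were called in neither. EPB41L4A-AS1 was higher in both lines without the run. GAS5 counted as without it, because its RefSeq start is not the start of the GENCODE transcript printed above. SNHG6, also higher in both lines, had no promoter sequence, while 2 of its 4 spliced GENCODE transcripts started with the run. It started 10 of 110 spliced transcripts of host genes higher in PC3 (9.09%) and 8 of 62 of the others (12.9%). Among all long noncoding genes the share was 2.51%. Within 10 bases of the start 13 of 20 (65%) had such a run, beside 33.3% of all promoters. Of these 13, 6 were higher in PC3, beside 10 of the 20. The RefSeq start of SNHG14, 1 of the 13, lies 154975 bases from the deposited start.

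On either strand of the 300 bases, CACGTG, a MYC and USF site, was found in 1 of 20 (SNHG7), beside 7.43% of all promoters. TGATGCAA, the CHOP and ATF4 composite element, was found in 0 of 20, beside 0.923%, and TGACGTCA, the cyclic AMP response element, in 0 of 20, beside 1.98%. These windows hold only 250 bases before and 50 bases after the start.

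The spliced transcripts of the host genes in GENCODE release 29 were read for the frame that opens at the first ATG. It ended more than 50 bases before the last exon junction, the layout that NMD acts on, in 145 of 172 spliced transcripts (84.3%), beside 71.2% of 25185 spliced transcripts from 12604 long noncoding genes. In GAS5 this held for 10 of 10 transcripts, in EPB41L4A-AS1 for 4 of 4, in ZFAS1 for 9 of 10, in SNHG7 for 3 of 4 and in SNHG8 for 3 of 5. It held for 86.4% of transcripts of the host genes higher in PC3 and for 80.6% of those of the other host genes. SNHG14 alone gave 22 of the 62 transcripts of the others. By gene, at least 50% of transcripts had this layout in 12 of 12 host genes higher in PC3 and in 8 of the 11 others. Among all long noncoding genes the share was 69.0%. Transcripts of 1 gene overlap, and no test was made.

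The machinery around the host genes was read from fixed lists, chosen with results of these data known. Of the 12 NMD factors, 3 were higher and 0 lower in PC3, and 2 were higher and 1 lower in DU145, near the 21.7% and 17.2% of all genes that were higher. UPF3A and UPF3B, which link the decay machinery to exon junctions, were higher in both lines, by 0.26 and 0.24 in PC3 (adjusted p = 0.00196 and 0.00494) and by 0.26 and 0.31 in DU145 (adjusted p = 0.000375 and 0.000455). Of the 5 exon junction complex genes, 1 was higher and 1 lower in PC3 and 0 changed in DU145.

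Of 10 mRNAs reported elsewhere as NMD targets, 8 were higher and 1 lower in PC3 (median log2 1.21), and 8 were higher and 0 lower in DU145 (median 0.27). These counts stand beside 21.7% of all genes higher in PC3 and 17.2% in DU145. ATF3, a stress-induced transcription factor, was higher by 3.79 in PC3 and 2.41 in DU145, DDIT3, the CHOP gene, by 2.74 and 1.27, and SLC7A11, the cystine transporter, by 1.86 and 2.11. ATF3, DDIT3 and SLC7A11 are also known as genes that stress signalling switches on through ATF4.

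The snoRNP proteins are few, and their counts stand beside 21.7% of all genes lower in PC3 and 16.8% in DU145. Of the 4 box C/D core proteins (NOP56, NOP58, FBL and SNU13) 0 changed in PC3 and 1 was lower in DU145. Of the 4 box H/ACA core proteins (DKC1, NOP10, NHP2 and GAR1) 0 changed in PC3 and 2 were lower in DU145. Of 11 assembly factors, 1 was higher and 4 were lower in PC3, and 0 were higher and 5 lower in DU145. TCOF1, the nucleolar protein treacle, fell by 0.33 and 0.15, and RPAP3, a part of the R2TP chaperone, fell by 0.23 and 0.13.

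Host genes that code for proteins were higher in 31 of 41 cases in PC3 (3 lower, median log2 0.36) and in 28 of 41 in DU145 (7 lower, median 0.23). Among all genes tested, 21.7% were higher in PC3 and 17.2% in DU145. RPL12, RPL13A and RPS12, which code for ribosomal proteins, were higher by 0.74, 0.53 and 0.64 in PC3 and by 0.41, 0.50 and 0.34 in DU145. HSPA8, NCL and IPO7, hosts that code for a chaperone, nucleolin and an importin, fell by 0.72, 0.25 and 0.16 in PC3 and by 0.43, 0.17 and 0.18 in DU145. Many of these hosts are ribosomal protein genes, so that the list is not free of that family. Of 16 other long noncoding RNAs, 12 could be tested, and 5 were higher and 0 lower in each line, beside the same shares of all genes. CRNDE, NEAT1 and TUG1 were higher in both, by 0.39, 0.21 and 0.25 in PC3 and by 0.63, 0.64 and 0.20 in DU145.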

How the data were processed

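RNA from 12 samples (2 lines, 2 treatments, 3 samples each) was enriched with Oligo(dT) beads and sequenced by the authors. The authors aligned reads to GRCh38 with HISAT2 2.1.0 and compared groups with DESeq 1.18.1, per their methods and processing notes. The counting program was not given in the sources used here. The deposited count table holds whole read counts per gene. The deposited table named for FPKM holds CPM: all 384876 values equalled the count divided by the library total within a tolerance of 1e-05. The deposited comparison tables hold log2 fold changes and p-values of the authors' own comparisons and were not used.

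Of 33595 entries with an Ensembl identifier, 1518 repeats were dropped, and 44 broken lines were left out. Counts were tested with edgeR 4.0.16 in R 4.3.3 (TMM, filterByExpr at a minimum count of 10, quasi-likelihood test, Benjamini-Hochberg adjustment over all genes). A standard error is the absolute log2 fold change divided by the root of F. CPM in the text are TMM-scaled. Each line was fitted on its own 6 samples, the interaction on all 12. The call was an adjusted p below 0.05. All 23 host genes passed the filter in every comparison. The fit was tested on simulated data.

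Alternatives were RLE and library-size scaling, DESeq2 1.42.0, limma 3.58.1 on log2(CPM + 1) and log2(CPM + 0.1), other filters, a replicate block, all samples in one fit, stricter thresholds and each sample left out. Sequences came from RefSeq (promoters, GRCh38.p14) and GENCODE release 29, where 21 of the 26 matched genes had the deposited start and end. The members and gene lists were chosen with earlier results of these data known. All host genes are named. Of other lists the 3 genes per direction with the largest mean change among those called in the same direction in both lines are named, together with members named for completeness and genes at the loci of host genes. Some line markers are not reported here. The classes by snoRNA type follow general knowledge. Figures were drawn with matplotlib 3.10.9.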

Additional observations from a re-analysis of the deposited data

Results flagged for a closer look

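The response to pentamidine differed between the lines, by the interaction term of edgeR's quasi-likelihood test, Benjamini-Hochberg adjusted, for 7 host genes. The PC3 response minus the DU145 response on the log2 scale was 0.55 for ZFAS1, 0.53 for SNHG7, 0.51 for GAS5, 0.46 for SNHG8, 0.39 for SNHG15, 0.38 for EPB41L4A-AS1 and 0.23 for SNHG1. In ZFAS1, SNHG7, GAS5, SNHG8 and EPB41L4A-AS1 the response was past the threshold in each line and larger in PC3. SNHG15 and SNHG1 were past it in PC3 alone. Since the libraries labelled PC3 held CTNNA1 counts, what sets the groups apart other than the labelled line was not tested.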

How the results depend on the processing

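The medians of the host genes stayed above 0 in both lines in every alternative tried. Over the alternatives on normalization, filter and tool and on leaving out samples, 8 to 14 host genes were called in PC3, 7 to 9 in DU145 and 10 to 15 between the vehicle-treated lines. Asking for an absolute log2 fold change above 1 left 0 in PC3, 0 in DU145, 0 for the difference in response and 2 between the lines, and an adjusted p below 0.01 left 3 for the difference in response. Among the 9 host genes overlapping no other gene, 6 were called in PC3 and 3 in DU145, with medians of 0.26 and 0.16. The PC3 median was 0.26 with at least 10 counts in every sample, with 10 counts in all 12 samples and with the entries under older names. Leaving out 1 sample gave PC3 medians of 0.14 to 0.28, DU145 medians of 0.0263 to 0.135 and 4 to 9 host genes with a different response, 4 of them without PC3 pentamidine replicate 2. With library size alone the differences of EPB41L4A-AS1, SNHG1 and SNHG8 were lost (adjusted p = 0.067, 0.127 and 0.064), and SNHG5 passed as smaller in PC3 (0.0493). Of the called values 0 changed sign, while 14 lost the call under other settings and 33 on leaving out a sample. All values that changed sign were uncalled. In PC3 SNHG21 was at 0.0110 with the replicate block and 0.0317 with limma on log2(CPM + 0.1), and SNHG9 at -0.0120 with library size alone. In DU145, under library size, limma on log2(CPM + 1) and limma on log2(CPM + 0.1) in turn, DANCR was at 0.00445, 0.00667 and 0.00681, SNHG10 at 0.0359, 0.0240 and 0.0257, SNHG14 at 0.0337, 0.0351 and 0.0360, SNHG17 at 0.0258, 0.0240 and 0.0244, SNHG3 at 0.0300, 0.0315 and 0.0318, and SNHG21 at 0.0219 under library size. On leaving out 1 sample, the PC3 values ran from -0.20 to 0.0319 (SNHG12), -0.27 to 0.38 (SNHG19), -0.33 to 0.54 (SNHG21) and -0.35 to 0.36 (SNHG9), and the DU145 values from -0.16 to 0.11 (SNHG10), -0.0480 to 0.0372 (SNHG14), -0.00745 to 0.0338 (SNHG16), -0.34 to 0.30 (SNHG21) and -0.0641 to 0.0116 (SNHG3). The cause was not tested. Same-numbered vehicle and pentamidine samples correlated at -0.157 to 0.045, and differently numbered ones at -0.151 to 0.169. No pairing by number was seen, though with 3 samples a group this check cannot exclude one. A fit with the replicate block called 11 host genes in PC3, 8 in DU145 and 7 for the difference, with medians of 0.155 and 0.0394. Depth limits SNHG9 and SNHG21, which had 7 to 30 counts a sample.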

Other observations

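The count table lists 4 further small nucleolar RNA host genes under older names, which the rule on names did not take in and which were added after seeing the data. LRRC75A-AS1, now SNHG29, had 2667, 3395 and 3110 counts in vehicle-treated PC3 and 6424, 6047 and 6280 counts after pentamidine. In DU145 it had 3483, 3915 and 3818 and then 6247, 6589 and 6152 counts. The groups did not overlap, and the log2 fold change was 1.04 in PC3 (edgeR's quasi-likelihood test, adjusted p = 3.08e-09) and 0.73 in DU145 (adjusted p = 2.14e-25), beside 0.96 and 0.45 for GAS5. C6orf48, now SNHG32, was higher by 0.43 in PC3 (adjusted p = 0.00146) and by 0.26 in DU145 (adjusted p = 0.000121).

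LINC02001, now SNHG30, went the other way in PC3, with 69, 94 and 96 counts in vehicle samples and 43, 53 and 41 after pentamidine (log2 fold change -0.91, adjusted p = 0.00148), and had -0.11 in DU145 (adjusted p = 0.738). The difference between the lines did not pass the test (adjusted p = 0.0512). LINC00888, now SNHG33, had log2 fold changes of 0.33 and -0.02 (adjusted p = 0.360 and 0.949). With these 4 entries, 15 of 27 host genes were called in PC3, of which 14 were higher and 1 lower, beside 21.7% and 21.7% of all genes.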
